A study of Homo sapiens with 6 samples.

Results

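The genes described here are 10 human genes of the actin cytoskeleton, namely CALD1, FHL2, TPM1, TPM2, TPM4, MYL9, VCL, ACTN1, CNN3 and SRF, out of 19775 genes named by the array. All probe sets that name 1 of them were taken, 39 in all. Of these, 23 had a mean level at or above the array median and entered the test, and 16 did not. CALD1 and FHL2 were chosen by their measured signal, which was low in resistant and high in parental cells on these same arrays, so their values are given as a description without a test. The other 8 genes were named as parts of the same filament system.

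RNA was hybridised to Affymetrix HG U133 Plus 2.0 arrays. The 2 groups were the parental line K562 and a derivative resistant to methotrexate (MTX), an inhibitor of folate metabolism, with 3 arrays each. K562 is a human line established from chronic myelogenous leukaemia, which carries erythroid features and grows in suspension. The parental cells were sensitive to MTX. The resistant cells withstood a concentration that the labels give as 10e-5M, were obtained by raising the drug in steps, and were kept in a medium that lacked hypoxanthine, thymidine and glycine. Sensitive and resistant cells were therefore grown differently, and resistance, selection and medium cannot be told apart. Nothing in the labels says that the 3 arrays of a group came from separate cultures, so p-values measure the spread between arrays, which may be technical. A level is the signal of a probe set relative to the median signal on the same array, and is given in array medians. Log2 differences are differences between the groups' mean log2 levels, and folds are those differences turned back to ratios, so a fold need not equal the ratio of the printed mean levels. Since each probe set binds with its own strength, levels of single genes were compared between arrays. The level filter, the choice of the brightest probe set and the sums over markers do use levels across probe sets. Such sums lean toward the brightest probe sets, and they too were compared between arrays.

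Actin filaments are built from actin subunits, and tropomyosins lie along them and set which other proteins can bind. Caldesmon, the product of CALD1, binds actin, tropomyosin and myosin and restrains the actomyosin motor, while calponins bind the same thin filament and myosin II, switched on through its regulatory light chain, pulls on it. Vinculin and alpha-actinin anchor and bundle filaments at adhesion sites. SRF is the transcription factor that binds a DNA element called the CArG box in many of these genes, with cofactors (MRTF proteins) that respond to the pool of free actin, and FHL2 is a LIM-domain adaptor that acts as a transcription cofactor and also sits at adhesions and in the muscle sarcomere.

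Because SRF links these genes, their promoters were searched for the CArG box. RefSeq gave a promoter with 1 start for 9 of the 10 genes, on GRCh38.p14, and MYL9 was missing from the table. The 250 bases before the start are printed 5′ to 3′ for the gene chosen first, CALD1, for TPM1 and TPM4, which are contrasted below, and for FHL2 and SRF. Capitals mark a CArG box.
CALD1, chr7:134779384-134779633, plus strand: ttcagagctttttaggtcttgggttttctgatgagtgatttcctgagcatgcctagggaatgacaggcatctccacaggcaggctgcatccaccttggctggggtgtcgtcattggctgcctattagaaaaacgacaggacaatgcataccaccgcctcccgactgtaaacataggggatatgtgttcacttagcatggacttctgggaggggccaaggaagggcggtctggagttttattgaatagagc
FHL2, chr2:105438514-105438763, minus strand: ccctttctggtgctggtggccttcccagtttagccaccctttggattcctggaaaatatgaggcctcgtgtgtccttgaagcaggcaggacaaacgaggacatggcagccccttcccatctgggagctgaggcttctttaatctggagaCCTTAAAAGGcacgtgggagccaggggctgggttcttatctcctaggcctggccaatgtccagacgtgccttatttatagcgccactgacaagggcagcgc
TPM1, chr15:63048239-63048488, plus strand: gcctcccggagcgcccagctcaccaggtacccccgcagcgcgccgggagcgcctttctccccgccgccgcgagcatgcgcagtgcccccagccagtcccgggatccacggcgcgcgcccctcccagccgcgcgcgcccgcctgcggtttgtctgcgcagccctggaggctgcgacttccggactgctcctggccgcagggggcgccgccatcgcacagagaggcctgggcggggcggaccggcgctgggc
TPM4, chr19:16067288-16067537, plus strand: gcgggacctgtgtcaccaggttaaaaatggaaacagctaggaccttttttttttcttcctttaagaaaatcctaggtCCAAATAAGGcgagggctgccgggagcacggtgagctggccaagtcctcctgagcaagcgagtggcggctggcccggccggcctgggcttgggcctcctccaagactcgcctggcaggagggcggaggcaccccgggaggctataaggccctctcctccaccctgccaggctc
SRF, chr6:43171019-43171268, plus strand: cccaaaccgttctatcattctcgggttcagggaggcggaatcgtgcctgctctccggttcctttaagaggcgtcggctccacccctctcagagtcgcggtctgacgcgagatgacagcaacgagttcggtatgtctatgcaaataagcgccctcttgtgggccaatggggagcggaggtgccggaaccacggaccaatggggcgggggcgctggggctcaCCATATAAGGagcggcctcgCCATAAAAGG

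Within the window of 250 bases before and 50 bases after the start, 3 of the 9 promoters held a CArG box on either strand. The box of FHL2 began 101 bases before the start and that of TPM4 began 173 bases before it. SRF held 2 boxes, beginning 30 and 10 bases before its start. Of all 27305 RefSeq promoters, 351 (1.29%) held the box, and 11 of 126 promoters of the related pathway genes described below did (8.73%). The letters TATAAA, searched on both strands as well, were found in 2 of the 9, FHL2 and SRF, and in 12% of all promoters. A match of letters is a description and no evidence of binding, and no match says only that these letters were not in this window. Of the genes with a box, FHL2 was low in resistant cells, while the tested probe sets of TPM4 and SRF overlapped between the groups.

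The arrays had medians of 10.2 to 14.3 in the deposited signal. Parental array 1 stood apart from its group, with a Spearman correlation of 0.899 and 0.889 with parental 2 and 3 over the probe sets, against 0.969 between those 2 arrays and 0.941 to 0.968 among resistant arrays. Summed levels of K562 erythroid markers (10 of 15 measured) were 1783, 1796 and 1714 on the parental and 1424, 1188 and 1264 on the resistant arrays, and none of the 10 stayed under 1 array median. Epithelial markers summed to 648, 341 and 273 against 309, 251 and 224, with CLDN4 under 1 throughout, and 9 of 11 were highest in parental 1. Among fibroblast markers, which could bring actin genes with them, PDGFRA, PDGFRB, LUM, POSTN and COL5A2 stayed under 1 array median on every array, and the sum over 13 genes was 12.6, 12.1 and 10.1 on the parental and 14.1, 10.3 and 12.6 on the resistant arrays. Smooth muscle markers (9 genes) summed to 18.7, 20.6 and 21.8 on the parental and 19.5, 12.0 and 14.5 on the resistant arrays, with MYH11 under 1 throughout.

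Caldesmon RNA was high in parental cells and under the array median in resistant cells. On the brightest of its probe sets, 212077_at, CALD1 had levels of 18.2, 19.0 and 13.8 array medians on parental arrays 1, 2 and 3, and 0.195, 0.208 and 0.0784 on resistant arrays 1, 2 and 3. The groups were far apart, with every parental array well over the array median. The mean went from 17.0 ± 2.78 to 0.161 ± 0.0714 (SD, n = 3 each), and the difference of the mean log2 levels was -6.84 or 115-fold. The size of that fold rests on resistant levels far under the array median, and the difference was -5.40 and -3.95 when 0.25 or 1 array median was added to each level first. In bulk RNA, fewer cells that express a gene and less RNA in each cell cannot be told apart.

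CALD1 is covered by 11 probe sets, and the other 4 that passed the filter were also lower on every resistant array than on every parental array. On 201616_s_at the levels were 4.94, 3.23 and 4.02 on the parental and 0.0894, 0.128 and 0.422 on the resistant arrays, a log2 difference of -4.57. On 201617_x_at they were 3.87, 4.50 and 2.46 against 0.683, 0.032 and 0.206. On 214880_x_at they were 2.08, 2.58 and 1.94 against 0.333, 0.224 and 0.0392, a log2 difference of -3.93. The smallest difference among the 5 was on 201615_x_at, with 1.90, 1.97 and 2.11 on the parental and 0.252, 0.736 and 0.755 on the resistant arrays, a log2 difference of -1.94 or 3.83-fold. All resistant arrays lay below all parental arrays in 12.3% of all tested probe sets. No weight is put on the 5 of 5, because CALD1 was picked for this contrast. The 6 probe sets of CALD1 under the filter (205525_at, 215198_s_at, 215199_at, 231881_at, 235834_at and 243084_at) had log2 differences from -1.75 to 0.01, and the groups overlapped on each of them.

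FHL2 is covered by a lone probe set, 202949_s_at. Its levels were 28.0, 59.8 and 51.3 array medians on parental arrays 1, 2 and 3, and 1.10, 0.480 and 0.0882 on resistant arrays 1, 2 and 3. Parental 1 was the lowest parental array and still stood far over the highest resistant array. The mean went from 46.4 ± 16.5 to 0.555 ± 0.509 (SD, n = 3 each), and the difference of the mean log2 levels was -6.94 or 123-fold. That fold also rests on low resistant levels, and the difference was -6.00 and -4.91 when 0.25 or 1 array median was added to each level first. Within the resistant group the levels spread by more than in the parental group on the log2 scale, and leaving out single arrays moved the difference between -7.74 and -5.93. Without parental 1, the array that stood apart, the differences were -6.78 for CALD1 and -7.27 for FHL2.

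**Figure D1:**
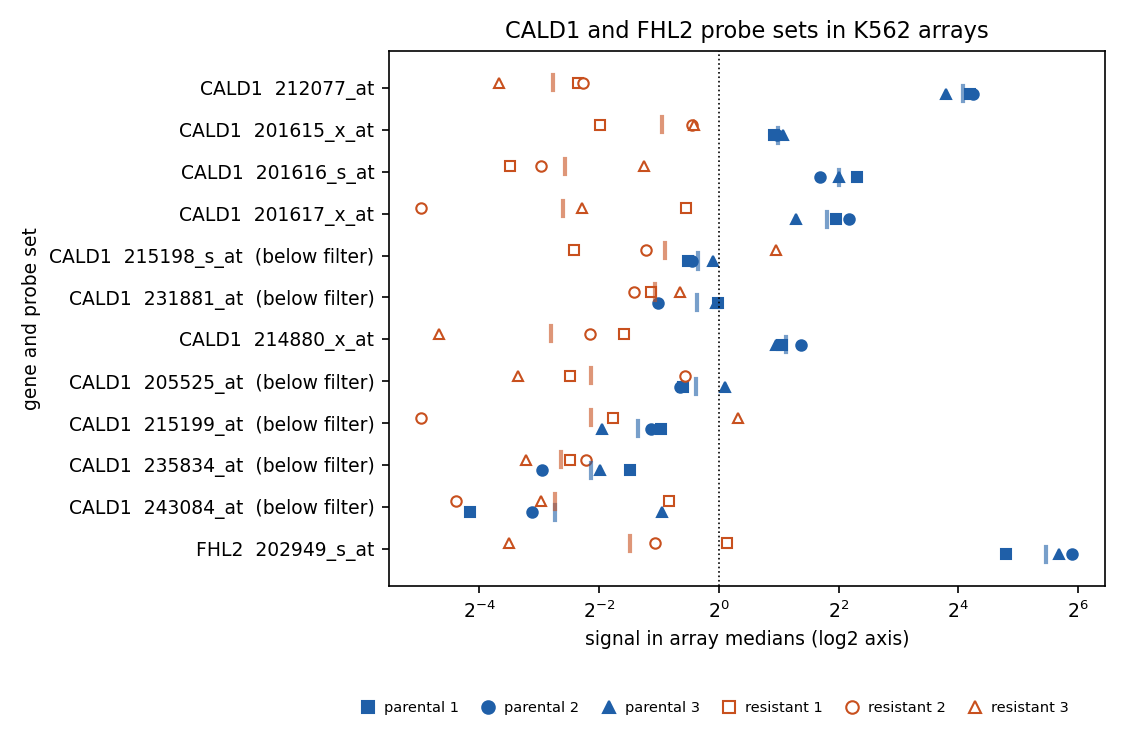
Signal of each CALD1 and FHL2 probe set, in array medians on a log2 axis, on 3 parental arrays (filled) and 3 resistant arrays (open), with bars at the group means of log2 levels and a dotted line at 1 array median. On the 5 CALD1 probe sets above the filter and on FHL2 every resistant array lies to the left of every parental array, while the 6 CALD1 probe sets under the filter overlap.

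The plot of CALD1 and FHL2 shows that the resistant points on 212077_at and 202949_s_at sit near or under the dotted line, and that the probe sets under the filter scatter around or under it in both groups. The genes with the most similar pattern over the 6 arrays, by Pearson correlation of log2 levels among tested probe sets with 1 gene, were PIR (0.999), CCND1 (0.997), HBE1 (0.997), ORAI2 (0.996) and BTG3 (0.995) for CALD1. For FHL2 they were GABPA (0.999), APOE (0.998), PSMD8 (0.996), ZNF280A (0.995) and SCPEP1 (0.994). No other actin cytoskeleton gene of the 10 was among them. With 2 groups far apart, such a correlation mostly restates that a gene was lower in resistant cells, and its size is not a measure of the fold. Thus ORAI2 went from 12.0 to 5.51 and GABPA from 10.3 to 5.32 array medians.

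Most probe sets of the other 8 genes were not called. Of their 27 probe sets 17 passed the filter, and 1 of the 17, for TPM1, was called lower in resistant cells (limma, adjusted p under 0.05 over 26692 probe sets and at least 2-fold), while of all tested probe sets 2.33% were called, 1.14% lower and 1.20% higher. None was called higher, where 1 was higher and 5 were lower at an unadjusted p under 0.05, and the methods' t-test with Benjamini-Hochberg adjustment called none in either direction. Over all 26692 tested probe sets that last test called 44 lower and 82 higher. Its lack of calls among the 17 therefore does not set these genes apart. It left out the study's own filter on measurement precision, so it does not repeat the study's test. All resistant arrays lay below all parental arrays on 5 of the 17 and above them on 2, against 12.3% and 14.9% of all tested probe sets. The 5 were the 3 tested TPM1 probe sets, 201058_s_at of MYL9 and 200931_s_at of VCL, and the 2 were both of CNN3. Probe sets of 1 gene are not independent of each other, so no excess is read from these counts. The median log2 difference of the 17 was 0.01, against 0.03 over all tested probe sets. These counts leave out the 10 probe sets under the filter and so do not cover everything the array holds for these genes.

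The tropomyosin gene TPM3 had no probe set that names it alone. Among TPM1, TPM2 and TPM4, TPM1 was the one that fell, on the probe set that was called. On 210987_x_at its levels were 7.57, 7.83 and 4.97 on the parental and 1.56, 2.27 and 1.46 array medians on the resistant arrays. The groups were well separated. The mean went from 6.79 ± 1.58 to 1.76 ± 0.442 (SD, n = 3 each), a log2 difference of -1.94 ± 0.293 (SE) with an adjusted p of 0.0269 by limma. The call was fragile, because it was lost without parental 2 (adjusted p = 0.114), resistant 1 (0.100), resistant 2 (0.0645) or resistant 3 (0.0897) by limma, though the difference stayed between -2.15 and -1.82. The other 2 tested probe sets of TPM1 lay in the same direction and were not called. On 206116_s_at the levels were 5.03, 6.12 and 4.80 against 0.463, 1.87 and 1.27, a log2 difference of -2.35 ± 0.511 (SE, limma adjusted p = 0.0774). On 210986_s_at they were 8.19, 6.22 and 5.14 against 1.60, 0.056 and 1.42, where the low value of resistant 2 gave a wide error (log2 difference -3.67 ± 1.26, limma adjusted p = 0.191). Without resistant 2 it was -2.08 (limma adjusted p = 0.0647). The _x_at and _s_at endings mark probe sets whose probes can match several transcripts, so signal from related tropomyosins may enter them. The 3 TPM1 probe sets under the filter (206117_at, 238688_at and 1558532_at) had log2 differences of -0.10, 0.38 and 0.17.

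TPM2 and TPM4, which encode tropomyosins of muscle and non-muscle filaments, did not pass the test. For TPM4 on 212481_s_at the levels were 28.5, 11.4 and 17.1 on the parental and 43.7, 22.4 and 15.5 on the resistant arrays, which overlapped (log2 difference 0.48 ± 0.489, limma adjusted p = 0.635). Its other tested probe sets, 209344_at and 1567107_s_at, differed by 0.77 and 0.01 and overlapped as well. On all 3, array 1 was the highest of its group, in parental and in resistant cells alike. The probe sets of TPM4 under the filter, 1559989_at and 235922_at, differed by 1.64 and 1.02. For TPM2 on 204083_s_at the levels were 1.10, 1.29 and 0.843 against 2.76, 1.49 and 1.09 (log2 difference 0.63 ± 0.386, limma adjusted p = 0.427). The TPM2 probe sets under the filter, 227397_at, 229911_at and 212654_at, differed by 1.81, 1.79 and -1.29, and of these only 229911_at had every resistant array above every parental array. The log2 ratio of TPM1 to TPM4 (210987_x_at and 212481_s_at) was lower in every resistant array than in every parental array, with a mean difference of -2.43. This pair was chosen with its values known and is given without a test.

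The calponins CNN3 and CNN1 differed in opposite directions, though neither passed the test. A further calponin, CNN2, overlapped between the groups (201605_x_at, log2 difference 0.02, limma adjusted p = 0.978). CNN3, an acidic calponin of non-muscle cells, had levels of 1.02, 3.76 and 5.34 on the parental and 13.8, 10.01 and 7.02 array medians on the resistant arrays on 201445_at. All resistant arrays lay above all parental arrays, but the parental arrays were spread over a wide range with parental 1 lowest. The mean was 3.37 ± 2.18 in parental and 10.3 ± 3.38 in resistant cells (SD, n = 3 each), a log2 difference of 1.85 ± 0.634 (SE) with a limma adjusted p of 0.191. On 228297_at the levels were 0.049, 2.59 and 4.88 against 7.34, 7.89 and 8.11. The resistant arrays were close to each other there, while parental 1 was near the floor (log2 difference 3.19 ± 1.63, limma adjusted p = 0.352). Without parental 1 the differences of the 2 probe sets became alike, 1.14 and 1.13, with limma adjusted p of 0.145 and 0.122. CNN1, the smooth muscle calponin and no member of the chosen 10, had a mean of 7.38 ± 1.25 in parental and 2.71 ± 0.849 in resistant cells (log2 difference -1.48, limma adjusted p = 0.0609). The log2 ratio of CNN3 to CNN1 was higher in every resistant array, with a mean difference of 3.33, and this pair too was chosen with its values known and is given without a test.

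MYL9, the regulatory light chain of smooth muscle and non-muscle myosin II, gave no single answer. On 201058_s_at its levels were 2.29, 1.03 and 1.48 on the parental and 0.886, 0.232 and 0.0784 on the resistant arrays. The groups did not overlap, yet the error was wide (log2 difference -2.59 ± 0.851, limma adjusted p = 0.178). Its mean over all arrays was 1.00, so it passed the level filter only through the parental arrays (mean 1.60 against 0.399). It dropped under the filter without parental 1, parental 2 or parental 3. Its place among the 5 tested probe sets with all resistant arrays below thus rests on the group where it was high. On 244149_at the levels were 0.916, 0.641 and 1.70 against 0.878, 1.40 and 1.16 and overlapped (log2 difference 0.17 ± 0.401, limma adjusted p = 0.854).

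Of the adhesion genes, VCL (vinculin) was the more separated. On 200931_s_at its levels were 98.1, 81.3 and 73.0 on the parental and 51.5, 41.6 and 50.2 array medians on the resistant arrays. The mean was 84.2 ± 12.8 against 47.8 ± 5.38 (SD, n = 3 each), 1.76-fold lower, which is under the 2-fold limit and had a limma adjusted p of 0.128. The groups did not overlap. The other VCL probe set, 200930_s_at, was under the filter and differed by -0.52. ACTN1 (alpha-actinin-1) overlapped between the groups on its 3 tested probe sets. On 208636_at the levels were 68.3, 36.9 and 29.5 against 43.2, 32.3 and 33.1 (log2 difference -0.23 ± 0.354, limma adjusted p = 0.770). On 208637_x_at and 211160_x_at the log2 differences were -0.19 and -0.61, with limma adjusted p of 0.811 and 0.461. Parental 1 was the highest parental array on all 3, and without it 208636_at and 208637_x_at turned to 0.12 and 0.12. The ACTN1 probe set 237401_at, under the filter, was higher on every resistant array (log2 difference 0.81).

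SRF, the factor that binds the CArG box, did not pass the test. On 202401_s_at its levels were 6.31, 4.31 and 3.18 on the parental and 3.78, 5.90 and 6.97 array medians on the resistant arrays. The groups covered almost the same range (log2 difference 0.28 ± 0.356, limma adjusted p = 0.712). On 202400_s_at they were 0.224, 1.12 and 1.39 against 2.30, 1.07 and 1.80, which overlapped (log2 difference 1.22 ± 0.721, limma adjusted p = 0.414). Without parental 1, which was the lowest array, that difference was 0.40 (limma adjusted p = 0.582). The cofactors MRTFA and MRTFB, named here with their values known, differed by -0.02 and 0.24 with limma adjusted p of 0.985 and 0.688. An error of 0.356 leaves differences of moderate size in SRF undetectable with 3 arrays a group.

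**Figure D2:**
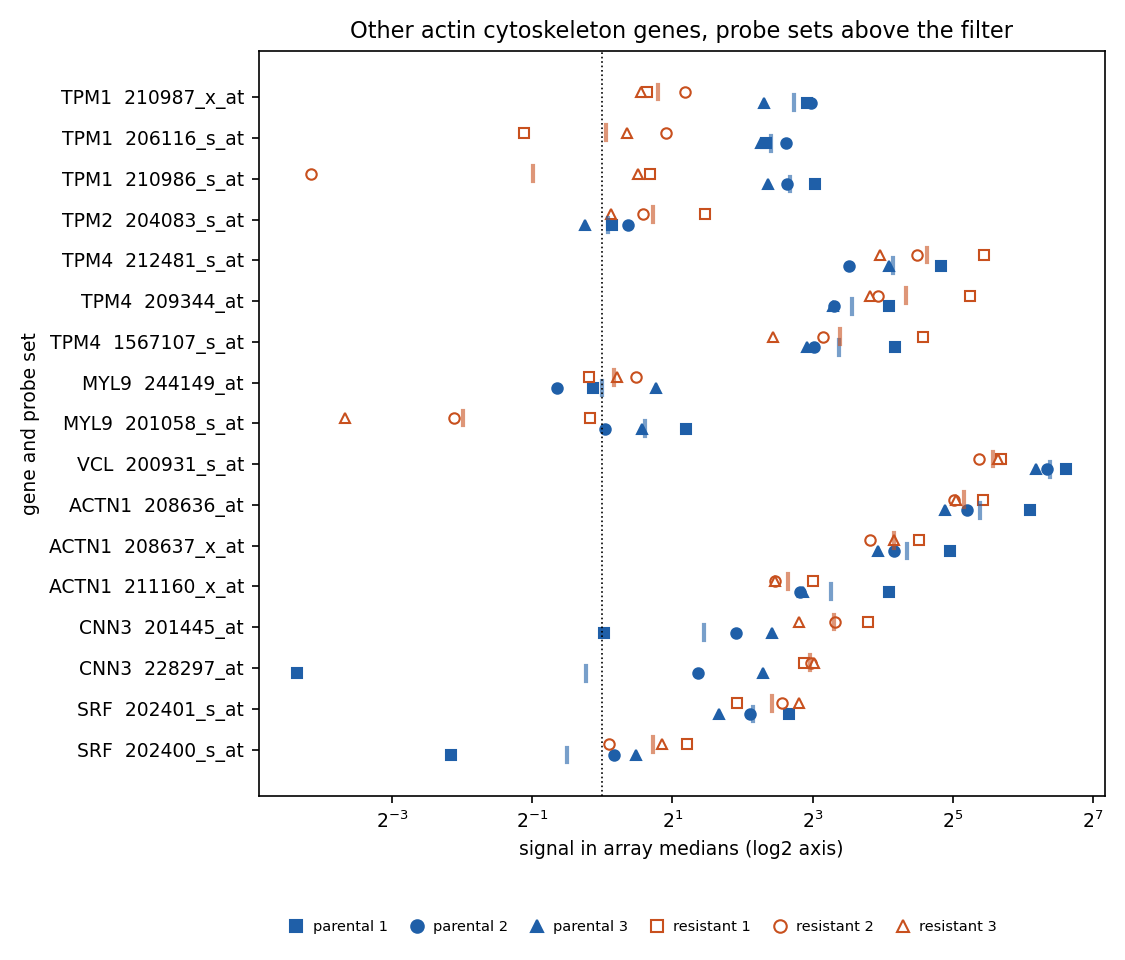
Signal of the 17 tested probe sets of TPM1, TPM2, TPM4, MYL9, VCL, ACTN1, CNN3 and SRF, in array medians on a log2 axis, on 3 parental arrays (filled) and 3 resistant arrays (open), with bars at the group means of log2 levels. TPM1 sits lower and CNN3 higher on every resistant array, VCL is separated by less than 2-fold, and TPM2, TPM4, ACTN1 and SRF overlap.

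Parental 1 deserves a separate look, since it bears on several of these genes. On 12 of the 17 probe sets it exceeded the average of the other 2 parental arrays, as it did on 53.9% of all tested probe sets. The deviation was upward for the 3 ACTN1 and the 3 TPM4 probe sets. It was downward for both CNN3 probe sets and for 202400_s_at of SRF, which were also the probe sets with the greatest upward group differences among the 17. Without this array the log2 differences were 0.83 for TPM4 on 212481_s_at, 0.11 for MYL9 on 244149_at, -0.70 for VCL on 200931_s_at and 0.54 for SRF on 202401_s_at, and those of ACTN1, CNN3 and 202400_s_at are given with these genes. For TPM1 on 210987_x_at the difference without it was -1.85, with a limma adjusted p of 0.0418.

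**Figure D3:**
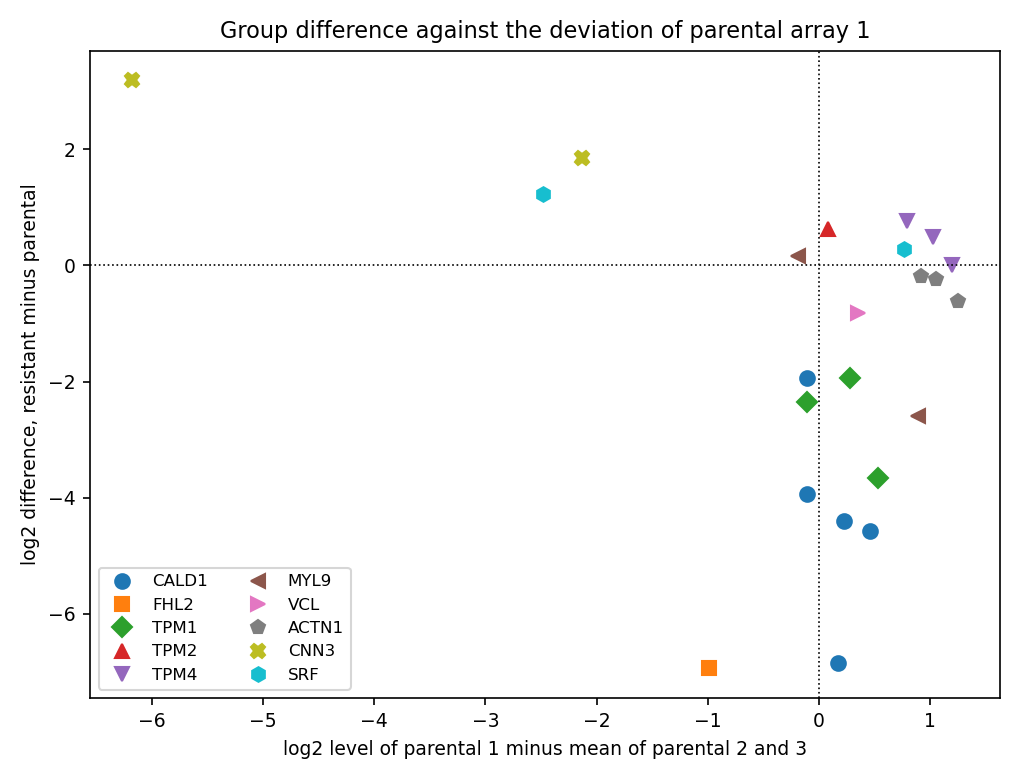
Each point is 1 tested probe set of the 10 genes: the x axis is the log2 level of parental 1 minus the mean of parental 2 and 3, and the y axis is the log2 difference between groups, resistant minus parental. Parental 1 enters both axes, so a slope downward to the right is built in. CALD1 and TPM1 sit near 0 on the x axis with low y values, while both CNN3 probe sets lie far to the left.

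The plot of group difference against the deviation of parental 1 sets the genes apart by how far this array lies from its group. CALD1 and TPM1 deviated little in parental 1, and FHL2 was lower in parental 1 than in the other parental arrays although it was far lower still in resistant cells.

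Most other genes of the actin system showed no call. The 8 lists of related genes held 151 genes besides the 10, of which 139 were on the array and 116 had a tested probe set. By limma, 1 gene was called lower and 3 were called higher, against 1.47% and 1.30% of all 11810 genes tested. At an unadjusted p under 0.05 by limma, 23 genes were lower and 6 higher. The share of all tested genes at that p was not counted, so nothing is read from these numbers. All resistant arrays lay below all parental arrays for 26 genes (22.4%) and above them for 10 (8.62%), against 14.2% and 16.1% of all genes. The median log2 difference of the 116 genes was -0.25, against 0.02 over all genes. For 73 of the 116 genes (62.9%, against 56.4% of all genes) parental 1 exceeded the average of the other 2 parental arrays, and its part in these counts was not tested. The median was -0.16 without parental 1 and -0.07 without resistant 2.

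COTL1, a coactosin-like protein that binds filamentous actin, was the gene called lower. Its levels on 221059_s_at were 28.4, 45.7 and 32.0 on the parental and 5.05, 3.51 and 2.34 array medians on the resistant arrays. The mean went from 35.3 ± 9.12 to 3.63 ± 1.36 (SD, n = 3 each), a log2 difference of -3.32 ± 0.350 (SE) with a limma adjusted p of 0.00809, and both of its tested probe sets were called. The call was lost without resistant 2 (limma adjusted p = 0.0514), with no level filter (limma adjusted p = 0.0551) and with the methods' t-test (adjusted p = 0.0727).

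The 3 genes called higher all encode regulators of filament growth or anchoring. ENAH, which promotes elongation of actin filaments, had 1.21, 0.679 and 0.669 on the parental and 8.93, 9.41 and 12.5 array medians on the resistant arrays on 222433_at (log2 difference 3.63 ± 0.311, limma adjusted p = 0.00394), and 2 of its 3 tested probe sets were called. TLN2, a talin that couples integrins to actin, had 0.252, 0.115 and 0.102 against 2.06, 2.55 and 2.51 on 212703_at (log2 difference 4.04 ± 0.377, limma adjusted p = 0.00538). In both, the resistant arrays were close to each other and far above the parental arrays. The other TLN2 probe sets were under the filter and not tested. Of these, 212701_at differed by 4.21, and 232625_at differed by -0.04 with the groups overlapping. DIAPH2, a formin, had 0.210, 0.855 and 0.669 against 8.15, 8.45 and 7.97 on 205726_at (log2 difference 4.05 ± 0.522, limma adjusted p = 0.0167). The parental means of ENAH, TLN2 and DIAPH2 were 0.853, 0.156 and 0.578 array medians. These genes thus passed the level filter only through the resistant arrays, where they were high, and with the filter at 2 TLN2 was not tested. The size of their folds rests on low parental values, since with 1 array median added to each level the log2 differences were 2.61 for ENAH, 1.54 for TLN2 and 2.56 for DIAPH2. The call of DIAPH2 was lost without resistant 1, resistant 2 or resistant 3 (limma adjusted p = 0.0699, 0.0826 and 0.0630) and with no level filter (0.0755). With the methods' t-test no call of ENAH, TLN2 or DIAPH2 was kept (adjusted p = 0.0542, 0.0641 and 0.110).

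**Figure D4:**
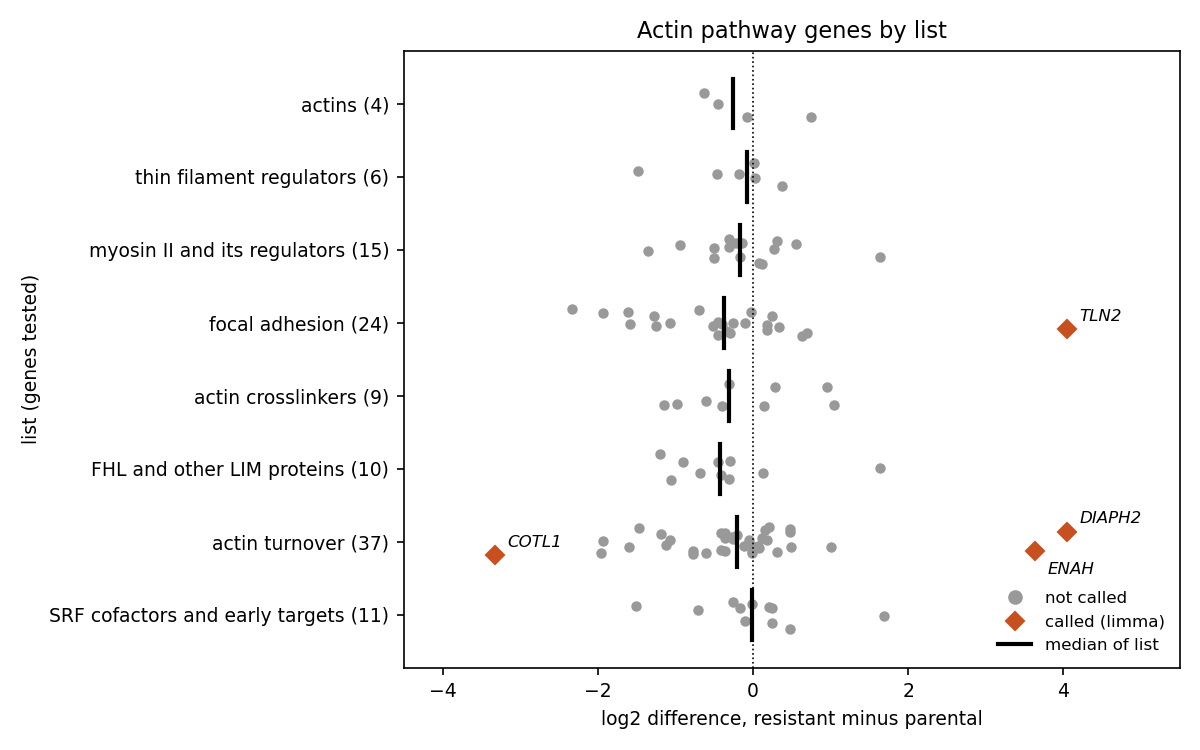
Log2 difference (resistant minus parental) for each tested gene of 8 lists of actin genes, with the number tested in brackets, called genes as diamonds with their names, and a bar at the median of each list. COTL1 is the sole diamond to the left of 0, and TLN2, DIAPH2 and ENAH lie to the right. The medians run from -0.43 to -0.02.

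By list, the 4 tested actins had a median log2 difference of -0.26, the 6 thin filament regulators -0.08, the 15 genes of myosin II and its regulators -0.16, the 9 crosslinkers -0.31, the 10 FHL and other LIM genes -0.43 and the 11 SRF cofactors and early targets -0.02, with no call in any of these. The 24 focal adhesion genes had a median of -0.38 with 1 call (TLN2), and the 37 genes of actin turnover -0.20 with the other 3 calls. ACTB, the main non-muscle actin, was at 629 ± 30.5 array medians in parental and 600 ± 68.7 in resistant cells (SD, n = 3 each), and these overlapped. FHL3, the relative of FHL2 and named here with its values known, went from 26.4 ± 3.88 to 12.7 ± 1.53 with no overlap, a log2 difference of -1.05 (limma adjusted p = 0.0732).

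Since platelets and their precursors are rich in several of these proteins and K562 cells can express megakaryocyte genes, markers of that lineage were set beside the actin genes. Their summed level, over 6 of 8 markers measured, was 12.0, 36.5 and 18.9 array medians on the parental and 7.02, 6.62 and 6.09 on the resistant arrays. The sums did not overlap, and GP9 and PPBP stayed under 1 array median on every array. ITGA2B, the largest part of the sum on parental 2, was at 3.95, 23.1 and 10.4 against 0.260, 1.78 and 0.873. PF4, under the filter and not tested, went the other way, with 0.217, 0.305 and 0.260 against 0.919, 0.344 and 1.24. The 3 tested markers (ITGA2B, TUBB1 and GP1BA) were lower on every resistant array. By limma none of these 3 was called, and all 3 had an unadjusted p under 0.05. Endothelial markers summed to 6.52, 5.42 and 4.88 against 2.34, 2.27 and 2.66, with CDH5, KDR and VWF under 1 throughout and 1 of 2 tested markers, ESAM, called lower by limma. Leukocyte markers summed to 153.8, 95.8 and 97.8 against 30.4, 31.2 and 22.01, with CD14, MPO and MS4A1 under 1 throughout. That sum was carried by LYZ and CD3D, while PTPRC was at 60.2, 0.374 and 0.402 on the parental and 6.50, 7.62 and 9.60 on the resistant arrays. Of these 3 tested markers limma called none, and LYZ and CD3D had an unadjusted p under 0.05. The erythroid sum was lower on the resistant arrays too, and was carried by HBE1, an embryonic globin. HBE1 was the 1 of its 10 markers called (log2 difference -3.35, limma adjusted p = 0.00562), and no other erythroid marker was lower on every resistant array. ANK1 was higher on every resistant array, and the remaining erythroid markers overlapped between the groups. The megakaryocyte, endothelial, leukocyte and erythroid sums were lower on the resistant arrays, as were CALD1, FHL2 and TPM1. The part of these sums in those results was not tested. Nothing is read from the markers with an unadjusted p under 0.05, since the share of all tested probe sets was not counted.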

How the data were processed

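The authors deposited linear MAS5 intensities (version not stated), with 1 value for each probe set and array. The per-array and per-gene division that the methods describe was not present in the deposited intensities. Groups and replicate numbers came from the labels. Of 54675 probe sets, 62 were controls and left out; 41097 named 1 gene, 1801 several and 11777 none.

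Each intensity was divided by its array median, floored at 0.01 and turned to log2. The 26692 probe sets with a mean level of at least 1 were compared with limma (version 3.58.1, R 4.3.3; lmFit, eBayes, two-sided, Benjamini-Hochberg over all of them). Probe sets were called where the change reached 2-fold and the adjusted p was under 0.05. The number of arrays, 6 in all, limits the precision. The fit was tested on simulated data. For each pathway gene the brightest tested probe set (by mean log2 level) that names 1 gene was used.

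The 10 genes, the pathway and marker lists and the tests were chosen with earlier results of these data known. By the naming rule, every probe set of the 10 genes is given, and in each pathway list every called gene if 4 or fewer, in each marker list the sum per array and the low genes, and the 5 genes most like CALD1 and FHL2. Other genes named were chosen with their values known. Among these were ACTB, CNN1, CNN2, the genes of the pair comparisons and the markers ITGA2B, TUBB1, GP1BA, PF4, LYZ, CD3D, PTPRC, ESAM and HBE1. Alternatives covered the scaling, the level filter, pseudocounts, the variance model, a plain t-test, a replicate block, probe sets with shared sequence, and leaving out each array. That t-test assumed equal variances and used the log2 levels and level filter given here. It left out the study's own filter on measurement precision (control strength), so it does not repeat the study's test. Promoters came from RefSeq (GRCh38.p14).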

Additional observations from a re-analysis of the deposited data

How the results depend on the processing

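Replicate numbers did not pair the arrays, since same-numbered parental and resistant arrays deviated from their group means with correlations of -0.00671, -0.0253 and -0.00641. With the replicate number as a block, 0 probe sets of the 8 tested genes were called lower by limma, against 1 (5 lower at an unadjusted p under 0.05), and the count of pathway genes did not move by over 1.5 times. That count of 1 for the 8 genes became 0 with no level filter and with the plain t-test (3 lower at an unadjusted p under 0.05). It also became 0 without both parental 1 and resistant 3, a setting chosen after seeing the data. Without _x_at and _s_at probe sets it was 0 too, but there every tested TPM1 probe set was itself left out. That 0 is therefore no lost call. It became 2 with the level filter at 2, with a pseudocount of 0.25 and with an intensity trend and robust prior in limma, and 3 with a pseudocount of 1. Leaving out single arrays gave 0 to 1, and none was called higher under any of these settings. No share of all probe sets or genes at an unadjusted p under 0.05 was counted in any setting. Nothing is therefore read from such counts here. The count of pathway genes called lower, 1, became 4 with quantile normalization and with scaling to the 75th percentile, 0 with no level filter and with the t-test (16 lower at an unadjusted p under 0.05), 6 with the filter at 2, 3 and 6 with pseudocounts of 0.25 and 1, 7 with the trend, 2 without parental 1 and resistant 3, and 0 to 2 without single arrays. The count called higher, 3, became 5 with a pseudocount of 1 and with the trend, 0 with the t-test (7 higher at an unadjusted p under 0.05), and 2 to 5 without single arrays. Over all tested probe sets the number called lower, 303, moved as well. It became 347 with quantile normalization, 353 with the 75th percentile, 77 with no level filter and 44 with the t-test. It was 445 with the filter at 2, and 455 and 592 with pseudocounts of 0.25 and 1. The trend gave 570 and the replicate block 136. The number called higher, 319, became 599 with a pseudocount of 1, 563 with the trend and 82 with the t-test. CALD1, at -6.84, was at -5.40 and -3.95 with pseudocounts of 0.25 and 1 and between -7.09 and -6.39 without single arrays. FHL2, at -6.94, was at -4.91 with a pseudocount of 1 and between -7.74 and -5.93 without single arrays, and has no value without _s_at probe sets since its lone probe set is of that kind. Values as deposited put the median of all probe sets at -0.17 in place of 0.03, with 321 called lower and 210 higher against 303 and 319, and turned 1567107_s_at of TPM4 to -0.19 and 244149_at of MYL9 to -0.031. TPM4 on 1567107_s_at also turned to -0.16, -0.21 and -0.58 without parental 2, parental 3 or resistant 1 (range -0.58 to 0.49 without single arrays), and MYL9 on 244149_at to -0.15 without parental 2 (range -0.15 to 0.35). ACTN1 turned to 0.12 on 208636_at (range -0.48 to 0.12) and 0.12 on 208637_x_at (range -0.40 to 0.12) without parental 1, and to 0.18 and 0.12 without both parental 1 and resistant 3. The cause of these changes was not tested. Levels under the array median in 1 of the groups limit the folds of CALD1, FHL2, MYL9, TLN2, ENAH and DIAPH2. Among single probe sets, 10 values reversed, 18 lost a call, 5 gained one and 322 kept direction and side of the threshold.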
